A study of Mus musculus with 1483 samples.

Results

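The 70 genes described here are the classical ligands and receptors of axon guidance in a table of 45768 mouse genes. They were chosen by a rule on gene symbols alone. The set holds 20 semaphorins and 11 semaphorin receptors (plexins and the neuropilins Nrp1 and Nrp2), 8 ephrins and 14 Eph receptors, 2 netrins, 5 netrin receptors (Dcc and the Unc5 genes), 2 netrin-G genes, 3 Slits and 4 Robo receptors. The remaining member is Plxna4os1, an antisense gene whose name begins like that of its neighbour Plxna4. The sources used here do not say that reads were counted by strand, so reads from the opposite strand cannot be told apart. All 70 genes had a read in at least 1 cell.

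Single neurons were sorted for the yellow fluorescent protein SYFP2 from the visual cortex region that the labels abbreviate as VISp, after an adeno-associated virus carrying a candidate enhancer had switched the fluorescent gene on. Each of the 33 C57Bl/6J mice carried 1 of 11 enhancers. The enhancers were eHGT_017h, eHGT_019h, eHGT_023h, eHGT_058h, eHGT_064h (4 mice), eHGT_078h, eHGT_079h, eHGT_082h (2 mice), eHGT_128h, eHGT_140h and hDLXI56i, with 3 mice for each of the 9 not given a number here. The labels give no untreated or enhancer-free mice, and the mouse was the replicate throughout. Cells in which the enhancer was silent were not collected, so each enhancer's sample is the set of cells it lit up. The age and sex of the mice and the dose of virus are not stated by the sources at hand.

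Axon guidance genes were first described for steering growing axons. Semaphorins signal through plexins, with the neuropilins as co-receptors for the secreted class 3 members. Ephrins and Eph receptors signal in both directions between touching cells, netrins act through Dcc and the Unc5 receptors, and Slits act through Robo receptors. Many of these genes remain active in adult cortical neurons, where they are known for roles in synapse placement, spine turnover and contact between cell types.

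The 1483 cells had a median of 586338 reads (range 833 to 1018507; 16 cells under 100000) and a median of 9709 detected genes. Values are reads of a gene per 1000000 reads of the cell (CPM). Cells were placed in classes by thresholds on transmitter and subclass markers, none of them an axon guidance gene. Inhibitory cells had 10 CPM or more of Gad1 or Gad2 and less than 10 CPM of Slc17a7. Excitatory cells had 10 CPM or more of Slc17a7 and less than 10 CPM of Gad1 and of Gad2. The 79 cells that passed on both sides joined no class. The interneuron classes carried exactly 1 of Pvalb, Sst, Vip or Lamp5 at 100 CPM, and the excitatory cells were split into Fezf2 cells, Rorb cells without Fezf2 and other excitatory cells with neither (both at 10 CPM). Of the cells, 38.8% were Pvalb, 14.4% Sst, 10.4% Lamp5, 8.23% Fezf2, 7.42% other excitatory, 3.37% Vip (50 cells) and 3.10% Rorb cells (46 cells), while 1271 cells in all joined a class. Each class but other excitatory, which had no list of its own, had all of its marker list at 10 CPM or more on average. Each list includes the gene that set the class, so that gene passed by construction. The lists were not specific to 1 class. In Fezf2 cells 4 of the 5 Rorb-list genes reached 10 CPM, and 2 did in other excitatory cells. Of the 6 Sst-list genes, 3 did in Vip cells and 0 in Pvalb cells. Median reads per class lay between 554466.5 and 597741, and median detected genes between 7881.5 (Vip) and 10515 (Fezf2). Library names carried the letter G in 24 mice and J in 9, which is used below as a possible batch. A profile is the mean CPM of 1 class in 1 mouse with at least 5 such cells, and 64 profiles entered the comparisons: 21 Pvalb, 12 Sst, 7 Lamp5, 4 Vip, 8 Fezf2, 5 Rorb and 7 other excitatory. The excitatory profiles came only from mice with eHGT_023h, eHGT_058h or eHGT_078h, so class and enhancer are partly bound together.

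Of 27 markers of glial and vascular cells, 9 were under 1 CPM in every class and 7 reached 10 CPM somewhere. The summed level of 5 oligodendrocyte markers ran from 52.8 to 157.5 CPM in excitatory profiles and from 4.36 to 2957 CPM in inhibitory profiles (medians 106.1 and 29.9 CPM). In the excitatory classes nearly all of it was Mbp, while Mag, Mog and Opalin were under 1 CPM. The highest inhibitory sums belonged to the Sst profiles of eHGT_023h mouse MouseID-497548 (2957 CPM) and eHGT_064h mouse MouseID-468100 (984 CPM), which stood apart from the Sst median of 36.7 CPM. The 5 astrocyte markers summed to 3.61 to 112.2 CPM in excitatory profiles (median 30.2) and to 0 to 33.7 CPM in inhibitory profiles (median 3.03). No guidance gene reported below lost its call when the 4 cells with at least 3 oligodendrocyte markers at 100 CPM were left out. Of these, 3 were in a class. The Vip cell among them was the only 1 of eHGT_082h mouse MouseID-475242 and entered no profile. The others were Sst cells of MouseID-497548 and MouseID-468100. No excitatory profile changed, so this check says nothing about the glial sums of the excitatory profiles.

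The promoters of 3 members are shown because each leads 1 family in the class comparisons below: Plxnd1 among the semaphorin receptors, Sema5a among the semaphorins and Slit2 among the Slits. Each is the 250 bases before the annotated start, from RefSeq (GRCm38.p6), at chr6:115995006-115995255 on the minus strand (Plxnd1), chr15:32244563-32244812 on the plus strand (Sema5a) and chr5:47982905-47983154 on the plus strand (Slit2). Capitals mark GGGCGG, a GC box, or its reverse complement CCGCCC.
Plxnd1: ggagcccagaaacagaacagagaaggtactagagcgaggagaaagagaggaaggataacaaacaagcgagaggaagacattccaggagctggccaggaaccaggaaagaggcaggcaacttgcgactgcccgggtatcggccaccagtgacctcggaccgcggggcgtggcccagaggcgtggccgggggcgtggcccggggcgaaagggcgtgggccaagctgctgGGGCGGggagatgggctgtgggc
Sema5a: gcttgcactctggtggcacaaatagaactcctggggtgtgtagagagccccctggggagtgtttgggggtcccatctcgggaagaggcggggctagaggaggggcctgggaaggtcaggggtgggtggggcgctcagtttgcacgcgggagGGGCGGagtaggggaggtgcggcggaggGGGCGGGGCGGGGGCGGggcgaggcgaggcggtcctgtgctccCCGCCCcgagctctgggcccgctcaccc
Slit2: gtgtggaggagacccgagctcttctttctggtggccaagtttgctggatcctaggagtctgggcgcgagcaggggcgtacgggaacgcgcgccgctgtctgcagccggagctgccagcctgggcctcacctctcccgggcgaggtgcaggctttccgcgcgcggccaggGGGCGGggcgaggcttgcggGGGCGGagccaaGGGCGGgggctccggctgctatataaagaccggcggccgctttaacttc

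The letters GGGCGG, read on both strands, occurred 1 time in the Plxnd1 window, 5 times in the Sema5a window and 3 times in the Slit2 window, with neighbouring copies joined in Sema5a. Of 32851 promoters of the same length, 32.7% held it. The homeodomain core TAATTA occurred 0 times in the 3 windows and in 4.84% of all promoters. A match is a match of letters and not a measured binding site. RefSeq promoter entries were found for 59 of the 70 members.

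Levels between genes can be compared only per length, so CPM were divided by exon length in kilobases. Robo2, a Slit receptor, was the highest member per kilobase on both sides, at 49.1 CPM per kb in excitatory and 20.7 CPM per kb in inhibitory cells. In excitatory cells it was followed by the Eph receptor Epha4 (33.04 CPM per kb), the membrane-anchored ligand Efna5 (29.5), the Eph receptor Epha6 (29.1) and the netrin receptor Unc5d (23.6). In inhibitory cells Efna5 (15.2 CPM per kb) and Epha6 (14.98) came next, then Ephb6, an Eph receptor with an inactive kinase domain (11.3), and Robo1, another Slit receptor (11.1). Of the 70 members, 47 reached 10 CPM in 10% of cells or more, a share that was not computed for all genes. The map of class means shows that few members were silent in all classes and few were level across them.

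**Figure D1:**
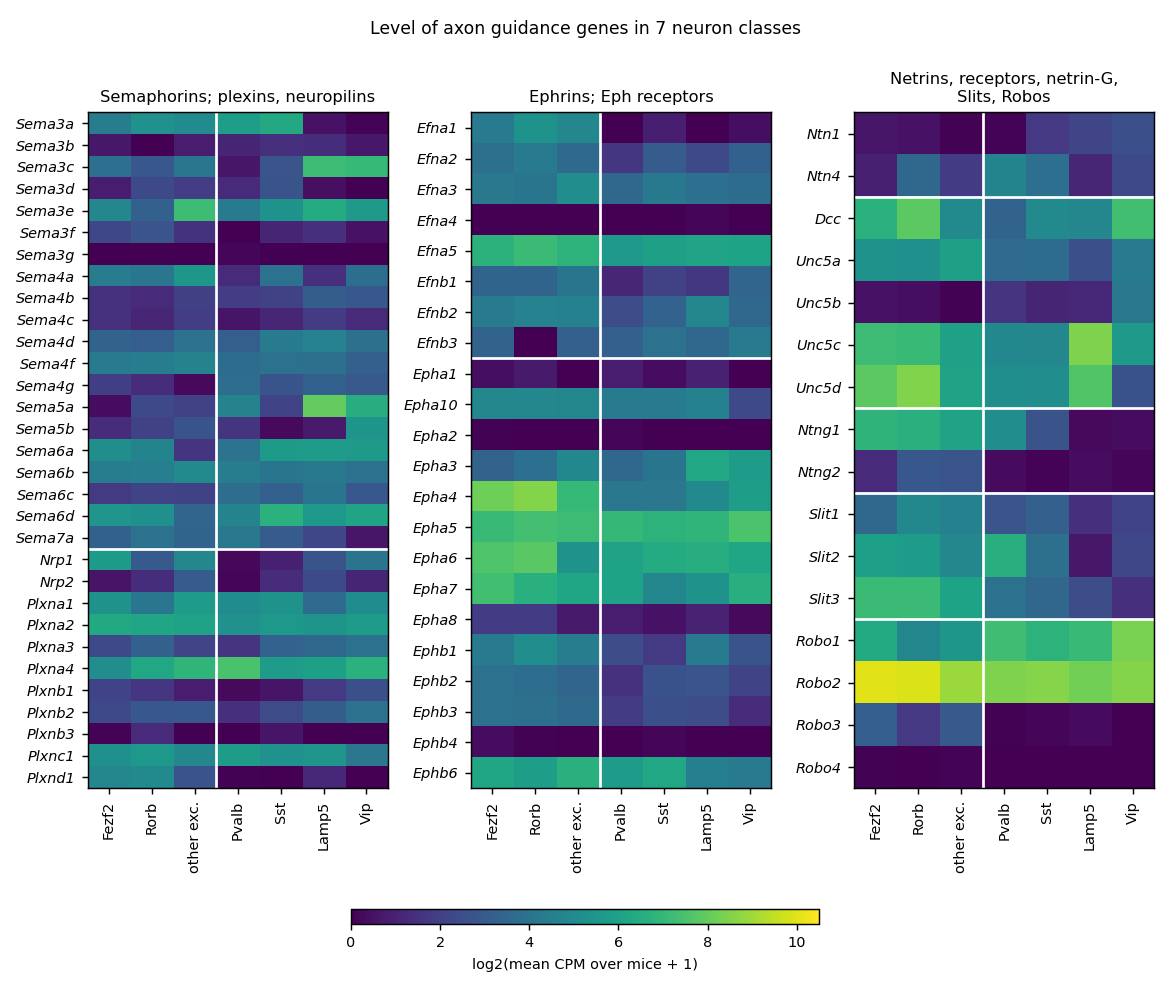
Mean level of the 69 protein-coding members (without Plxna4os1) in 7 neuron classes, as log2 of the mean CPM over mice plus 1. Genes run down the page by family and classes across. Robo2 is bright in all 7 classes, Sema3a is dark in Lamp5 and Vip cells, and Efna1 and Plxnd1 are bright mainly left of the white line, in the excitatory classes.

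For 2 pairs of ligand and receptor, chosen after their values were seen, the levels are set side by side. The secreted Sema3e averaged 16.03 CPM per kb in other excitatory cells, 3.002 in Fezf2 cells and 0.882 in Rorb cells. Plxnd1, the plexin that binds it directly, averaged 0.748 CPM per kb in other excitatory cells, 3.80 in Fezf2 cells and 4.23 in Rorb cells. The order of the classes for the ligand was thus not that for the receptor. Sema3a, a secreted repellent of growing axons, averaged 4.12 CPM per kb in Pvalb cells and 5.75 in Sst cells. Its binding co-receptor Nrp1 averaged 0.0187 CPM per kb in Pvalb cells, 0.0940 in Sst cells and 5.28 in Fezf2 cells. These are levels of RNA, with no test of the pairing.

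Excitatory cells were set against inhibitory cells over 20 and 44 profiles. The 20 excitatory profiles came from the 8 mice that gave a Fezf2 profile, most of which gave more than 1. Profiles of 1 mouse were linked by a random block (correlation 0.0689) and are not independent replicates. A gene was called when limma's adjusted p over all genes was under 0.05 and the log2 difference was at least 1 in size. The log2 difference is between means of class means of log2(CPM + 1), each class weighing the same, so it can part from the ratio of mean CPM and understates the change of low genes. Of the 65 members that passed the low-level filter, 27 were called higher and 9 lower in excitatory cells, against 8.62% and 5.44% of all 22011 genes (14.1% in either direction). The members' median log2 difference was 0.73, beside 0.03 over all genes. All 3 Slits were higher, as were both netrin-G genes, 5 of 7 ephrins and 7 of 13 Eph receptors. No Eph receptor was called lower. Semaphorins had the reverse balance, with 3 of 19 called higher and 5 lower.

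Efna1, a membrane-anchored ephrin-A ligand, had the largest difference, with 10.7 to 69.2 CPM (median 23.8) in excitatory profiles and 0 to 3.67 CPM (median 0) in inhibitory profiles (log2 difference 4.51 ± 0.15, adjusted p = 4.38e-37). The 2 sides did not overlap, and the inhibitory median was 0. Slit3, a secreted Robo ligand, also separated the sides fully, at 45.4 to 225.8 CPM (median 104.6) in excitatory profiles and 0.243 to 28.2 CPM (median 9.23) in inhibitory profiles (log2 difference 4.17 ± 0.22, adjusted p = 1.42e-26). These were the 2 of the 36 called members whose groups did not overlap. The share of all called genes without overlap was not computed, here or in the comparisons below. Ntng1, the membrane-anchored netrin-G1 that binds the adhesion protein Lrrc4c, stood at 21.8 to 259.8 CPM (median 75.6) in excitatory profiles against 0 to 93.1 CPM (median 10.96) in inhibitory profiles (log2 difference 4.41 ± 0.28, adjusted p = 3.70e-22). Its overlap came from Pvalb profiles, described below.

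Among the other Slits, Slit1 had 2.96 to 43.9 CPM (median 17.8) in excitatory profiles and 0 to 24.5 CPM (median 4.99) in inhibitory profiles (log2 difference 2.15 ± 0.25, adjusted p = 5.52e-11). Slit2 is an instance of the equal weight given to classes. Its profiles had 19.2 to 97.8 CPM (median 36.7) in excitatory cells and 0 to 164 CPM (median 35.2) in inhibitory cells, nearly the same medians, yet it was called higher (log2 difference 2.501 ± 0.25, adjusted p = 3.53e-13). Within the inhibitory side, Slit2 averaged 94.3 ± 25.3 CPM in Pvalb, 13.8 ± 12.8 CPM in Sst, 3.69 ± 6.76 CPM in Vip and 0.607 ± 0.998 CPM in Lamp5 cells (SD over mice), and Pvalb cells have the most profiles. Sema4a, a transmembrane semaphorin, stood at 0.798 to 65.2 CPM (median 27.999) in excitatory profiles and 0 to 25.5 CPM (median 1.76) in inhibitory profiles (log2 difference 2.17 ± 0.30, adjusted p = 9.25e-09).

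On the receptor side, Plxnd1 had 0.476 to 55.4 CPM (median 14.3) in excitatory profiles against 0 to 5.36 CPM (median 0) in inhibitory profiles (log2 difference 3.62 ± 0.23, adjusted p = 5.17e-22). Epha4, an Eph receptor that binds ephrins of both classes, had 77.4 to 492.7 CPM (median 219.8) in excitatory profiles against 4.13 to 95.5 CPM (median 20.1) in inhibitory profiles (log2 difference 3.19 ± 0.20, adjusted p = 9.00e-23). Both had the higher median on the excitatory side, with 5 of the 20 excitatory profiles (4 of them other excitatory) inside the inhibitory range for Plxnd1 and 1 for Epha4. Nrp1, the Sema3a co-receptor, had 0.951 to 108.1 CPM (median 17.7) in excitatory and 0 to 48.2 CPM (median 0.0402) in inhibitory profiles (log2 difference 2.55 ± 0.36, adjusted p = 9.36e-09). The netrin receptor Unc5d spread widely on both sides, at 1.46 to 563 CPM (median 177.8) in excitatory and 0 to 314.4 CPM (median 31.6) in inhibitory profiles (log2 difference 2.45 ± 0.37, adjusted p = 5.82e-08). Its relative Unc5a had 14.4 to 89.6 CPM (median 42.6) in excitatory and 0.788 to 35.9 CPM (median 10.52) in inhibitory profiles (log2 difference 2.12 ± 0.24, adjusted p = 2.27e-11). The receptor Ephb1, which binds ephrin-B ligands, had 7.03 to 47.5 CPM (median 20.7) in excitatory and 0 to 34.6 CPM (median 3.65) in inhibitory profiles (log2 difference 1.96 ± 0.24, adjusted p = 3.68e-10). In all 3 the excitatory median was the higher and the ranges overlapped.

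Genes lower in excitatory cells were led by Sema5a, a transmembrane semaphorin with thrombospondin repeats, at 0 to 20.2 CPM (median 0) in excitatory profiles and 0 to 338.7 CPM (median 22.1) in inhibitory profiles (log2 difference -4.12 ± 0.35, adjusted p = 4.91e-16). Robo1, at 9.41 to 174.4 CPM (median 47.7) in excitatory and 48.1 to 445.9 CPM (median 135.6) in inhibitory profiles, was the one Robo called lower (log2 difference -1.90 ± 0.20, adjusted p = 2.68e-12), while Robo2 and Robo3 were called higher. The transmembrane class 6 semaphorins, ligands of A-type plexins, were lower together for Sema6a, Sema6c and Sema6d, and Sema6b was not called (0.55 ± 0.24, adjusted p = 0.0613). Sema6a had 0 to 85.2 CPM (median 19.3) in excitatory and 6.42 to 100.7 CPM (median 26.4) in inhibitory profiles (log2 difference -1.60 ± 0.19, adjusted p = 1.31e-10). The values for Sema6c were 0 to 8.19 CPM (median 2.42) in excitatory and 0 to 34.8 CPM (median 10.4) in inhibitory profiles (log2 difference -1.46 ± 0.25, adjusted p = 1.78e-06). Those for Sema6d were 0 to 95.4 CPM (median 21.99) in excitatory and 11.7 to 182.6 CPM (median 37.1) in inhibitory profiles (log2 difference -1.39 ± 0.29, adjusted p = 4.45e-05). All 3 overlapped between the sides. The ephrin-B ligand Efnb3 had 0 to 30.6 CPM (median 1.81) in excitatory and 0 to 28.9 CPM (median 9.35) in inhibitory profiles (log2 difference -1.82 ± 0.34, adjusted p = 8.74e-06). The laminin-like netrin Ntn4 had 0 to 22.2 CPM (median 1.77) in excitatory and 0 to 31.5 CPM (median 17.4) in inhibitory profiles (log2 difference -1.03 ± 0.24, adjusted p = 3.33e-04), so both again overlapped.

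Of these calls, 7 ended when each mouse was a fixed term, which compares classes within mice only: Nrp1 (2.28), Sema4a (1.87), Ephb1 (1.17), Efnb3 (-2.08), Sema6c (-1.59), Sema6d (-1.29) and Ntn4 (-0.53, log2 difference in each). Only eHGT_023h mice MouseID-497548 and MouseID-498748 and eHGT_058h mouse MouseID-458159 had profiles on both sides. With so few mice, a lost call cannot be told apart from a loss of power. Ntn4 also lost its call without eHGT_017h mouse MouseID-406074 (-0.90), eHGT_019h mouse MouseID-401668 (-0.89), eHGT_058h mouse MouseID-458159 (-0.85) or eHGT_058h mouse MouseID-463481 (-0.84). With the enhancer as a term, Ntn4 (-0.28) and Sema6d (-1.16) were not called. The astrocyte marker Aldh1l1 and Mbp moved with this contrast, with Aldh1l1 at 22.3 to 47.3 CPM in the excitatory classes and under 1 CPM in the interneuron classes, and their part in the result was not tested.

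**Figure D2:**
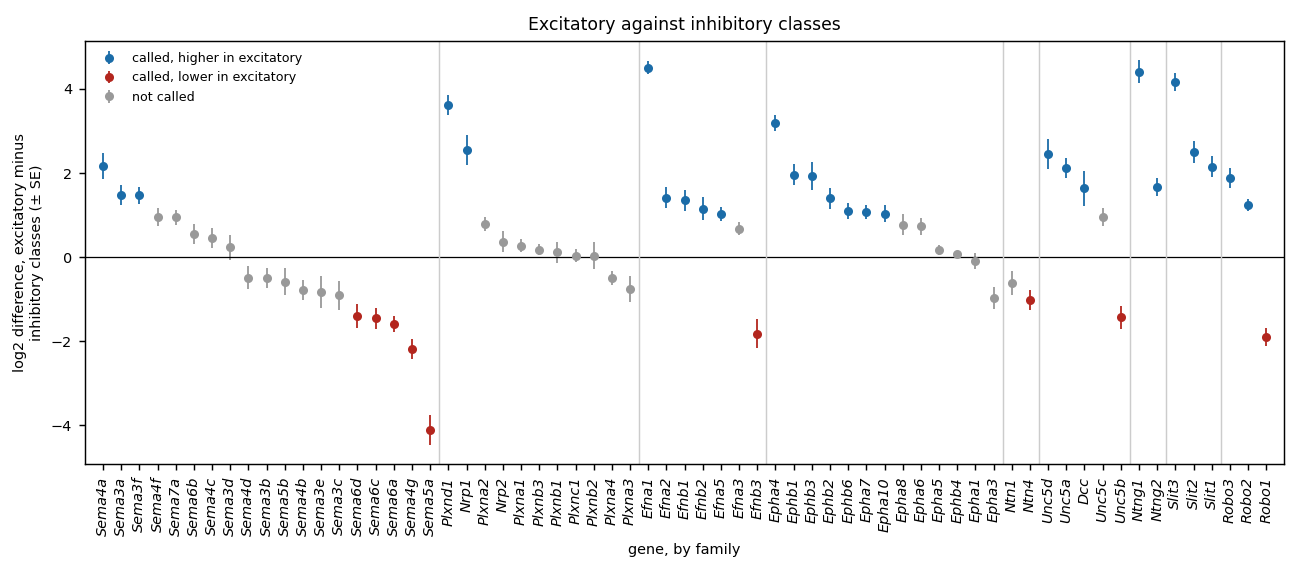
Log2 difference (excitatory minus inhibitory) of the 65 fitted members, grouped by family, with bars for 1 SE; blue points were called higher and red points lower in excitatory cells. The 3 Slits and 2 netrin-G genes are all above 0 and called, the Eph receptors have no red point, and Sema5a is the lowest point at -4.12.

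The 4 interneuron classes were then each set against the other 3. Pvalb cells (21 profiles) differed from the others (23 profiles) in 25 members, 7 higher and 18 lower, against 4.44% and 5.03% of all genes (9.47% in either direction). The members' median log2 difference was -0.19, beside 0.0015 over all genes. The 7 higher members were 2 semaphorins, 2 Slits, 1 netrin, 1 netrin-G gene and 1 semaphorin receptor. The 18 lower members were 5 semaphorins, 3 ephrins and 1 netrin on the ligand side, and 5 semaphorin receptors, 3 netrin receptors and 1 Eph receptor. These comparisons share profiles with each other and are given side by side.

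Slit2 had 50.2 to 164 CPM (median 90.7) in Pvalb profiles and 0 to 45.05 CPM (median 2.67) in the other interneuron profiles (log2 difference 4.85 ± 0.27, adjusted p = 1.37e-24). Every Pvalb profile lay above every other interneuron profile, which held for no other called member here. Slit3 was higher as well, at 6.23 to 28.2 CPM (median 13.6) in Pvalb profiles and 0.243 to 26.2 CPM (median 3.75) in the others (log2 difference 1.74 ± 0.23, adjusted p = 1.89e-09). Ntng1 had 11.4 to 93.1 CPM (median 26.1) in Pvalb profiles against 0 to 21.7 CPM (median 0.346) in the others (log2 difference 4.03 ± 0.29, adjusted p = 5.49e-19). The netrin Ntn4 had 7.49 to 31.5 CPM (median 24.8) in Pvalb profiles and 0 to 25.5 CPM (median 6.70) in the others (log2 difference 2.54 ± 0.25, adjusted p = 3.31e-13). Sema3a had 11.7 to 123.5 CPM (median 54.1) in Pvalb profiles and 0 to 114 CPM (median 28.9) in the others (log2 difference 3.42 ± 0.25, adjusted p = 5.40e-19). The others span a wide range because they include Sst cells, which also carried it. Sema7a, a membrane-anchored semaphorin that binds integrins and Plxnc1, had 5.20 to 27.1 CPM (median 18.3) in Pvalb profiles and 0 to 11.7 CPM (median 4.79) in the others (log2 difference 2.21 ± 0.18, adjusted p = 2.91e-16).

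Sema3c, a secreted semaphorin, was the member furthest below the other classes in Pvalb cells, at 0 to 3.29 CPM (median 0) in Pvalb profiles and 0 to 353.9 CPM (median 25.05) in the others (log2 difference -4.75 ± 0.36, adjusted p = 6.02e-18). The netrin receptor Dcc had 0 to 34.3 CPM (median 7.50) in Pvalb profiles and 0.235 to 228.2 CPM (median 29.02) in the others (log2 difference -2.24 ± 0.44, adjusted p = 2.67e-05). Both sides overlapped for each gene. For Dcc the median of the others lay inside the Pvalb range. For Sema3c the highest Pvalb profile lay above the Sst median given below. Plxna3, a plexin of class 3 semaphorin signalling, had 0 to 5.26 CPM (median 2.18) in Pvalb profiles and 1.63 to 22.3 CPM (median 9.24) in the others (log2 difference -1.98 ± 0.32, adjusted p = 5.77e-07). Epha3, a receptor for ephrin-A ligands, had 2.17 to 30.3 CPM (median 9.35) in Pvalb profiles and 2.80 to 115 CPM (median 23.6) in the others (log2 difference -1.82 ± 0.28, adjusted p = 1.09e-07). With each mouse as a fixed term, 14 members were called instead of 25, 8 higher and 6 lower, and Dcc was no longer among them (-1.03), nor was it with the enhancer as a term (-1.25). Counts over all genes under alternative settings are not given, here or below, so a drop may not be particular to the members.

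Sst cells (12 profiles) differed from the other interneurons (32 profiles) in 16 members, 7 higher and 9 lower, against 3.71% and 3.63% of all genes (7.34% in either direction). The median was 0.07 for the members and -0.01 for all genes. None of the 16 separated the 2 sides without overlap. Sema3a was again high, with 28.9 to 114 CPM (median 79.7) in Sst profiles and 0 to 123.5 CPM (median 33.3) in the others (log2 difference 4.19 ± 0.28, adjusted p = 3.85e-20). The other semaphorins went both ways. Sema4a had 0 to 24.6 CPM (median 13.8) in Sst profiles and 0 to 25.5 CPM (median 1.44) in the others (log2 difference 1.84 ± 0.36, adjusted p = 5.72e-05). Sema6d had 66.5 to 182.6 CPM (median 94.2) in Sst profiles and 11.7 to 139.3 CPM (median 25.99) in the others (log2 difference 1.34 ± 0.34, adjusted p = 0.00232). Their Sst medians were the higher ones. Sema5a was low, at 0 to 29.3 CPM (median 0.402) in Sst profiles and 4.49 to 338.7 CPM (median 28.9) in the others (log2 difference -4.96 ± 0.42, adjusted p = 1.49e-15). Sema3c had 0 to 25.05 CPM (median 2.38) in Sst profiles and 0 to 353.9 CPM (median 0.691) in the others (log2 difference -2.70 ± 0.41, adjusted p = 3.32e-07). For Sema3c the median of the others was below that of Sst cells, because Pvalb profiles fill that side. The class means it rests on were 5.82 ± 7.99 CPM in Sst cells, against 145.8 ± 49.7 CPM in Lamp5, 131.9 ± 148.3 CPM in Vip and 0.534 ± 0.989 CPM in Pvalb cells (SD over mice). Sema5b, the close relative of Sema5a, had 0 to 0.842 CPM (median 0.0479) in Sst profiles and 0 to 93.3 CPM (median 1.58) in the others (log2 difference -2.08 ± 0.38, adjusted p = 1.76e-05).

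Outside the semaphorins, the inactive-kinase receptor Ephb6 had 27.7 to 125.5 CPM (median 76.1) in Sst profiles and 4.07 to 89.1 CPM (median 43.6) in the others (log2 difference 1.46 ± 0.23, adjusted p = 7.13e-07). The netrin Ntn4 had 5.21 to 25.5 CPM (median 12.1) in Sst profiles and 0 to 31.5 CPM (median 22.6) in the others (log2 difference 1.20 ± 0.29, adjusted p = 0.00110), between the Pvalb level (25.3 ± 5.60 CPM) and the lower levels of Vip (4.05 ± 3.97 CPM) and Lamp5 cells (1.20 ± 1.49 CPM). Unc5c, a netrin receptor, had 13.02 to 56.7 CPM (median 23.8) in Sst profiles and 1.45 to 589.3 CPM (median 32.6) in the others (log2 difference -1.42 ± 0.26, adjusted p = 1.07e-05). The high end of the others came from Lamp5 cells.

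Lamp5 cells (7 profiles) differed from the other interneurons (37 profiles) in 20 members, 11 higher and 9 lower, against 6.01% and 3.91% of all genes (9.92% in either direction). The median was 0.13 for the members and 0.04 for all genes. Among the 20 called members, 3 did not overlap between the sides, and all 3 were higher: Sema5a, Unc5c and Unc5d. Sema5a had 173.2 to 338.7 CPM (median 245.1) in Lamp5 profiles and 0 to 155.5 CPM (median 19.7) in the others (log2 difference 4.15 ± 0.50, adjusted p = 5.03e-10). Unc5c had 196.5 to 589.3 CPM (median 291.7) in Lamp5 profiles and 1.45 to 82.5 CPM (median 24.3) in the others (log2 difference 3.42 ± 0.30, adjusted p = 7.21e-15). Unc5d had 125.4 to 314.4 CPM (median 206.7) in Lamp5 profiles and 0 to 103.8 CPM (median 25.5) in the others (log2 difference 3.84 ± 0.52, adjusted p = 1.37e-08). Each Lamp5 mouse thus lay above every other interneuron profile for these genes. Sema3c had 79.1 to 203.9 CPM (median 135.2) in Lamp5 profiles and 0 to 353.9 CPM (median 0.633) in the others (log2 difference 4.20 ± 0.49, adjusted p = 1.46e-10), with overlap through Vip cells. The ephrin-B ligand Efnb2 had 20.6 to 35.5 CPM (median 25.8) in Lamp5 profiles and 0.0850 to 26.7 CPM (median 4.30) in the others (log2 difference 2.07 ± 0.39, adjusted p = 3.03e-05). Ephb1, a receptor of such ligands, had 4.34 to 34.6 CPM (median 16.6) in Lamp5 profiles and 0 to 13.3 CPM (median 3.34) in the others (log2 difference 2.08 ± 0.35, adjusted p = 2.27e-06).

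Sema3a, Slit2, Ntn4 and Ntng1, all called higher in Pvalb cells, were called lower in Lamp5 cells. Sema3a had 0 to 1.72 CPM (median 0.0534) in Lamp5 profiles and 0 to 123.5 CPM (median 60.4) in the others (log2 difference -3.60 ± 0.33, adjusted p = 4.05e-14). Slit2 had 0 to 2.67 CPM (median 0.0869) in Lamp5 profiles and 0 to 164 CPM (median 68.9) in the others (log2 difference -3.15 ± 0.36, adjusted p = 8.24e-11). Lamp5 medians for both were under 0.1 CPM. Ntn4 had 0 to 3.66 CPM (median 0.576) in Lamp5 profiles and 0.287 to 31.5 CPM (median 22.3) in the others (log2 difference -2.48 ± 0.34, adjusted p = 2.54e-08). Ntng1 had 0 to 0.844 CPM (median 0.0809) in Lamp5 profiles and 0 to 93.1 CPM (median 17.3) in the others (log2 difference -2.21 ± 0.39, adjusted p = 8.77e-06).

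Vip cells rest on 4 profiles from 4 mice (eHGT_017h mice MouseID-406074 and MouseID-410195, eHGT_019h mouse MouseID-401668 and hDLXI56i mouse MouseID-400157), against 40 other interneuron profiles. In them 11 members were called higher and 12 lower, against 5.65% and 6.29% of all genes (11.9% in either direction), and the median was -0.10 for the members and -0.11 for all genes. Sema5b had 9.12, 20.6, 46.03 and 93.3 CPM in the Vip profiles and 0 to 9.13 CPM (median 0.304) in the others (log2 difference 4.31 ± 0.56, adjusted p = 6.98e-09). The lowest Vip profile lay just under the highest of the others. Sema3c had 48.5, 54.4, 70.7 and 353.9 CPM in Vip profiles and 0 to 203.9 CPM (median 0.983) in the others (log2 difference 3.24 ± 0.60, adjusted p = 2.56e-05). The value of eHGT_017h mouse MouseID-410195 was the highest of any profile. Sema4a had 2.54, 9.30, 13.95 and 25.5 CPM in Vip profiles and 0 to 24.6 CPM (median 1.57) in the others (log2 difference 1.53 ± 0.53, adjusted p = 0.0281). Of the 23 called members, 2 did not overlap between the sides: Robo1, at 287.9 to 445.9 CPM (median 294.4) in Vip profiles and 48.1 to 264.5 CPM (median 125.8) in the others, and the ephrin-B ligand Efnb1, both higher in Vip cells and picked out after their values were seen. The receptors Dcc and Unc5b, which netrins bind, were both higher. Dcc had 67.8, 164, 183.5 and 228.2 CPM in Vip profiles and 0 to 98.7 CPM (median 11.6) in the others (log2 difference 3.38 ± 0.73, adjusted p = 2.67e-04). Unc5b had 13.1, 16.9, 17.3 and 21.6 CPM in Vip profiles and 0 to 20.7 CPM (median 0.432) in the others (log2 difference 3.28 ± 0.46, adjusted p = 6.79e-08). Nrp1 had 0, 4.65, 8.57 and 48.2 CPM in Vip profiles and 0 to 13.3 CPM (median 0.0180) in the others (log2 difference 1.83 ± 0.62, adjusted p = 0.0253), so the 4 Vip mice did not share 1 level of it.

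Lower in Vip cells was the netrin receptor Unc5d, with 0, 0.459, 0.703 and 19.8 CPM in Vip profiles and 4.75 to 314.4 CPM (median 35.9) in the others (log2 difference -4.33 ± 0.64, adjusted p = 2.14e-07). Sema3a had 0, 0, 0 and 0.288 CPM in Vip profiles and 0 to 123.5 CPM (median 56.5) in the others (log2 difference -4.01 ± 0.41, adjusted p = 3.71e-12). Both genes were at or near 0 in at least 3 of the 4 mice. Epha10, an Eph receptor without kinase activity, had 0, 0.703, 5.23 and 9.90 CPM in Vip profiles and 5.25 to 33.5 CPM (median 17.2) in the others (log2 difference -2.62 ± 0.34, adjusted p = 1.16e-08). Slit2 had 0, 0, 0.943 and 13.8 CPM in Vip profiles and 0 to 164 CPM (median 59.1) in the others (log2 difference -2.30 ± 0.44, adjusted p = 4.73e-05). Its Vip and Lamp5 profiles ran from 0 upward, and the 50.2 CPM of the lowest Pvalb profile was above them all. The calls on Dcc (2.42), Nrp1 (1.51) and Sema4a (1.06) ended with each mouse as a fixed term, and those on Nrp1 (1.29) and Sema4a (1.11) with the enhancer as a term. Without eHGT_017h mouse MouseID-406074, Nrp1 (0.88) and Sema4a (1.58) lost their calls, as they did without eHGT_017h mouse MouseID-410195 (1.68 and 1.38), and Sema4a did without hDLXI56i mouse MouseID-400157 (1.11).

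**Figure D3:**
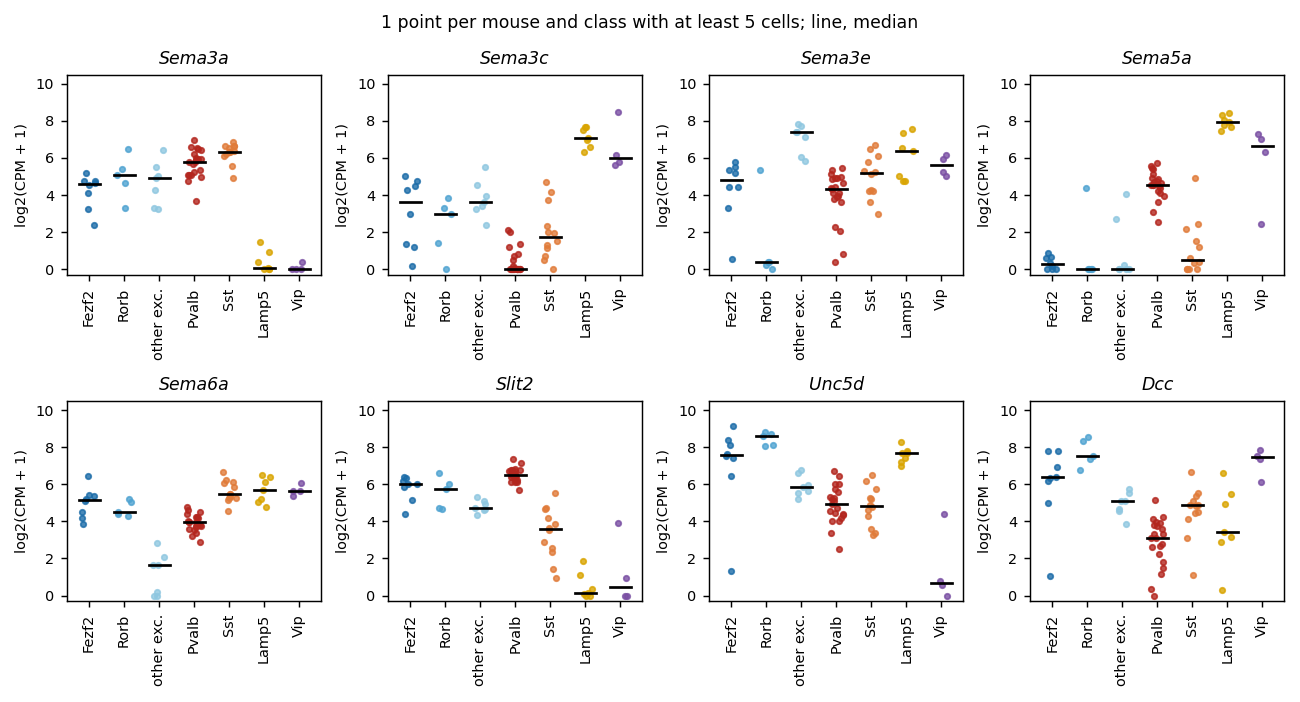
Level of 8 members as log2(CPM + 1) on the vertical axis, with 1 point per mouse and class of at least 5 cells and a line at the median, in 7 classes. Slit2 is high in all 21 Pvalb profiles, Sema5a and Unc5d in all 7 Lamp5 profiles, and Sema3a lies near 0 in Lamp5 and Vip cells, while Sema3e is high in the 7 other excitatory profiles.

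Within the excitatory cells, the Fezf2 class (8 profiles) was set against the rest (12 profiles), and 4 members were called higher and 5 lower, against 1.86% and 1.47% of all genes (3.33% in either direction). The median was -0.0020 for the members and 0.02 for all genes. Sema6a had 13.3 to 85.2 CPM (median 34.4) in Fezf2 profiles and 0 to 35.6 CPM (median 4.77) in the other excitatory classes (log2 difference 2.07 ± 0.29, adjusted p = 2.47e-07). Robo1 had 15.5 to 174.4 CPM (median 79.1) in Fezf2 profiles and 9.41 to 82.2 CPM (median 40.5) in the rest (log2 difference 1.08 ± 0.30, adjusted p = 0.0160). Epha6, a receptor of ephrin-A ligands, had 82.5 to 344.04 CPM (median 178.4) in Fezf2 profiles and 25.1 to 337.9 CPM (median 70.6) in the rest (log2 difference 1.01 ± 0.29, adjusted p = 0.0176). All 3 had the higher median in Fezf2 cells and overlapped. Plxna4, the plexin that pairs with Nrp1 for Sema3a, was lower, at 2.41 to 64.9 CPM (median 27.2) in Fezf2 profiles and 52.5 to 168.6 CPM (median 90.9) in the rest (log2 difference -1.84 ± 0.25, adjusted p = 1.60e-07). Slit1 had 2.96 to 19.8 CPM (median 8.66) in Fezf2 profiles and 8.01 to 43.9 CPM (median 26.6) in the rest (log2 difference -1.20 ± 0.37, adjusted p = 0.0353). Several of these calls hung on single mice. With each mouse as a fixed term, Robo1 (0.95) and Slit1 (-1.20) were not called. The enhancer as a term ended the calls on Epha6 (0.98) and Slit1 (-1.16), and a Fezf2 and Rorb threshold of 50 CPM those on Epha6 (0.53) and Robo1 (0.71). Robo1 also lost its call without eHGT_058h mouse MouseID-463481 (0.94) or eHGT_078h mouse MouseID-453328 (0.94), MouseID-454782 (0.92) or MouseID-498749 (0.85), and Epha6 without eHGT_058h mouse MouseID-458159 (0.90), MouseID-463481 (0.81) or MouseID-497551 (0.97). Slit1 lost it without eHGT_023h mouse MouseID-497548 (-1.23) or MouseID-498748 (-1.19), eHGT_058h mouse MouseID-497551 (-1.16), or eHGT_078h mouse MouseID-453328 (-1.18), MouseID-454782 (-1.11) or MouseID-498749 (-1.004). Mice of library letter G alone gave 4 called members.

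Rorb cells (5 profiles: eHGT_023h mouse MouseID-497548, eHGT_058h mice MouseID-458159, MouseID-463481 and MouseID-497551, and eHGT_078h mouse MouseID-498749) were set against 15 profiles of the other excitatory cells. Here 9 members were called higher and 6 lower, against 3.47% and 3.06% of all genes (6.53% in either direction). The median was 0.06 for the members and -0.03 for all genes. Sema3e was the lowest relative to the rest, at 0, 0.189, 0.290, 0.302 and 40.2 CPM in Rorb profiles and 0.449 to 229.5 CPM (median 53.4) in the others (log2 difference -4.34 ± 0.65, adjusted p = 2.32e-06). The value of 40.2 CPM came from eHGT_078h mouse MouseID-498749, where 1 of 5 Rorb cells held 99.2% of the summed level. Sema6a had 18.4, 20.2, 21.5, 31.7 and 35.6 CPM in Rorb profiles and 0 to 85.2 CPM (median 13.3) in the others (log2 difference 1.59 ± 0.32, adjusted p = 3.23e-04). Sema6d had 7.42, 37.6, 40.01, 47.7 and 57.1 CPM in Rorb profiles and 0 to 95.4 CPM (median 18.6) in the others (log2 difference 1.35 ± 0.48, adjusted p = 0.0464). The 2 class 6 genes overlapped widely between the sides. The netrin Ntn4 had 0.705, 3.32, 9.29, 15.9 and 22.2 CPM in Rorb profiles and 0 to 8.41 CPM (median 0.871) in the others (log2 difference 1.84 ± 0.41, adjusted p = 9.35e-04).

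Receptors named as higher in Rorb cells were Dcc and Unc5d, which netrins bind, and Plxnd1, which Sema3e binds. Dcc had 109.95, 161, 183.9, 326.5 and 368.4 CPM in Rorb profiles and 1.09 to 221.7 CPM (median 45.8) in the others (log2 difference 2.23 ± 0.70, adjusted p = 0.0213). Unc5d had 264.4, 276.8, 394.3, 414.5 and 452 CPM in Rorb profiles and 1.46 to 563 CPM (median 97.4) in the others (log2 difference 1.93 ± 0.61, adjusted p = 0.0230). Plxnd1 had 20.5, 23.6, 25.9, 36.3 and 48.1 CPM in Rorb profiles and 0.476 to 55.4 CPM (median 9.63) in the others (log2 difference 1.57 ± 0.38, adjusted p = 0.00276). Each had its Rorb median above that of the rest, with overlap. Nrp1 was lower, at 0.951, 7.28, 7.73, 7.84 and 10.2 CPM in Rorb profiles and 1.18 to 108.1 CPM (median 24.5) in the others (log2 difference -1.80 ± 0.60, adjusted p = 0.0303). Plxna1, a plexin of class 3 and class 6 semaphorins, had 7.77, 8.27, 12.3, 19.5 and 34.5 CPM in Rorb profiles and 26.1 to 79.6 CPM (median 46.8) in the others (log2 difference -1.62 ± 0.26, adjusted p = 8.29e-06). Robo1 had 9.41, 17.7, 21.1, 37.8 and 49.5 CPM in Rorb profiles and 12.5 to 174.4 CPM (median 57.3) in the others (log2 difference -1.10 ± 0.34, adjusted p = 0.0199).

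With each mouse as a fixed term, 8 members were called in Rorb cells, 5 higher and 3 lower, and the calls on Dcc (1.86), Unc5d (1.49), Plxnd1 (1.36), Nrp1 (-1.29) and Robo1 (-0.86) ended. Mice of letter G alone, with 2 Rorb profiles, gave 8 called members. Profiles of at least 10 cells left 1 Rorb profile, so the 4 members called there assume that this profile varies like those of the other classes. Ntn4 lost its call with a Fezf2 and Rorb threshold of 50 CPM (0.62), on means of log values (0.79), in mice of letter G (0.77), with the 1 profile of at least 10 cells (0.998) and with a pseudocount of 10 CPM (0.68). The threshold of 50 CPM also ended the calls on Robo1 (-0.39) and Sema6d (1.20), and an enhancer term those on Nrp1 (-1.63) and Unc5d (1.80). Dcc lost its call without eHGT_023h mouse MouseID-497548 (2.10) or eHGT_058h mouse MouseID-497551 (2.17), Unc5d without eHGT_023h mouse MouseID-497548 (1.94), Nrp1 without eHGT_078h mouse MouseID-454782 (-1.54) or MouseID-498749 (-1.29), and Robo1 without eHGT_058h mouse MouseID-463481 (-0.77) or MouseID-497551 (-1.03). Sema6d, near the threshold, lost it without any 1 of 10 mice (log2 difference 0.87 to 1.40). Those were eHGT_017h mouse MouseID-410195, eHGT_023h mouse MouseID-497548, eHGT_058h mice MouseID-458159, MouseID-463481 and MouseID-497551, eHGT_064h mice MouseID-468100, MouseID-492045, MouseID-497550 and MouseID-498750, and eHGT_079h mouse MouseID-475241.

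Other excitatory cells (7 profiles), which carried neither Fezf2 nor Rorb, differed from the other excitatory classes (13 profiles) in 18 members, 7 higher and 11 lower, against 3.67% and 4.77% of all genes (8.44% in either direction). The median was 0.01 for the members and -0.01 for all genes. Of the 18 called members, 3 did not overlap: Sema3e, Epha6 and Sema6a. Sema3e had 56.2 to 229.5 CPM (median 169.6) in other excitatory profiles and 0 to 53.4 CPM (median 20.7) in Fezf2 and Rorb profiles (log2 difference 4.24 ± 0.60, adjusted p = 8.20e-08). Its receptor Plxnd1 went the other way, at 0.476 to 9.74 CPM (median 4.82) in other excitatory profiles against 0.765 to 55.4 CPM (median 25.9) in Fezf2 and Rorb profiles (log2 difference -2.20 ± 0.35, adjusted p = 1.54e-06). The cells richest in the ligand were thus the excitatory class poorest in the receptor. Sema6a had 0 to 6.26 CPM (median 2.12) in other excitatory profiles and 13.3 to 85.2 CPM (median 31.7) in Fezf2 and Rorb profiles (log2 difference -3.66 ± 0.29, adjusted p = 6.83e-16). Sema6d had 0 to 26.2 CPM (median 7.05) in other excitatory profiles and 2.47 to 95.4 CPM (median 40.01) in Fezf2 and Rorb profiles (log2 difference -2.35 ± 0.44, adjusted p = 3.39e-05). Sema4a was higher, with 27.4 to 65.2 CPM (median 51.4) in other excitatory profiles and 0.798 to 37.9 CPM (median 14.9) in Fezf2 and Rorb profiles (log2 difference 1.62 ± 0.46, adjusted p = 0.00738).

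The A-type plexins Plxna4 and Plxna1 were higher in other excitatory cells. Plxna4 had 69.7 to 168.6 CPM (median 116) in other excitatory profiles and 2.41 to 96.999 CPM (median 54.3) in Fezf2 and Rorb profiles (log2 difference 1.33 ± 0.26, adjusted p = 6.45e-05). Plxna1 had 28.7 to 79.6 CPM (median 55.2) in other excitatory profiles and 7.77 to 51.1 CPM (median 34.5) in Fezf2 and Rorb profiles (log2 difference 1.05 ± 0.24, adjusted p = 6.24e-04). The Eph receptors split. Epha3 had 13.9 to 59.98 CPM (median 24.7) in other excitatory profiles and 0.888 to 42.003 CPM (median 10.2) in Fezf2 and Rorb profiles (log2 difference 1.52 ± 0.40, adjusted p = 0.00352). Epha6 had 25.1 to 79.8 CPM (median 30.6) in other excitatory profiles and 82.5 to 344.04 CPM (median 177.1) in Fezf2 and Rorb profiles (log2 difference -2.32 ± 0.30, adjusted p = 5.57e-09), with every other excitatory profile below every Fezf2 and Rorb profile. Plxna1 lost its call without eHGT_058h mouse MouseID-458159 (0.999) or MouseID-463481 (0.88), and with a Fezf2 and Rorb threshold of 50 CPM (0.74). Mice of letter G alone gave 11 called members.

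Taking all sorted cells of a mouse together, without classes, 53 of the 64 members tested differed among the 11 enhancers (F test over enhancers, adjusted p under 0.05), against 53.4% of all 18932 genes. The range of group means had a median of 2.26 log2 units for the members and 1.04 for all genes. The makeup of the cells moved with the enhancer. The 3 excitatory classes made up 97.1% of cells with eHGT_078h, 76.7% with eHGT_058h, 28.3% with eHGT_023h and at most 4.60% with the rest. Pvalb cells made up 91.97% with eHGT_140h and Lamp5 cells 64.8% with eHGT_019h. In such mouse-wide means, more cells of a class and more RNA per cell cannot be told apart.

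The 8 members of smallest adjusted p are given here. Unc5c had 283.8, 329.7 and 362.1 CPM in the 3 eHGT_019h mice, the highest group, and group means from 18.3 to 325.2 CPM (adjusted p = 1.25e-11). Sema5a was also highest with eHGT_019h, at 190.4, 223.5 and 248.6 CPM (group means 1.20 to 220.8 CPM, adjusted p = 5.58e-10). That enhancer had the largest share of Lamp5 cells, the class in which both genes were highest. Slit2 had 98.6 and 128.6 CPM in the 2 eHGT_082h mice and 71.2, 109.1 and 152.4 CPM in the eHGT_140h mice, against 2.46, 7.46 and 8.69 CPM with eHGT_019h (adjusted p = 2.54e-10). Sema3c group means ran from 0.0104 to 119 CPM (adjusted p = 4.50e-11), with 0, 0 and 0.0312 CPM in the eHGT_128h mice. Pvalb cells were the most frequent class with eHGT_082h, eHGT_140h and eHGT_128h. Efna1 had 21.9, 23.2 and 23.97 CPM with eHGT_058h, 15.9, 20.9 and 25.4 CPM with eHGT_078h and 0, 0 and 0 CPM with eHGT_140h (adjusted p = 4.48e-10). Nrp1 was highest with eHGT_078h, at 31.9, 61.7 and 88.2 CPM (group means from 0.00971 CPM, adjusted p = 9.83e-10). Epha4 was highest with eHGT_058h, at 193.8, 267.2 and 329.9 CPM (group means from 14.4 CPM, adjusted p = 2.17e-09), and Robo3, a divergent Robo that does not bind Slits in mammals, with eHGT_078h, at 10.45, 10.7 and 15.7 CPM (adjusted p = 4.54e-09). All 4 were called higher in excitatory cells, and eHGT_078h and eHGT_058h had the largest shares of excitatory cells. The part of the cell makeup in these differences was not tested.

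**Figure D4:**
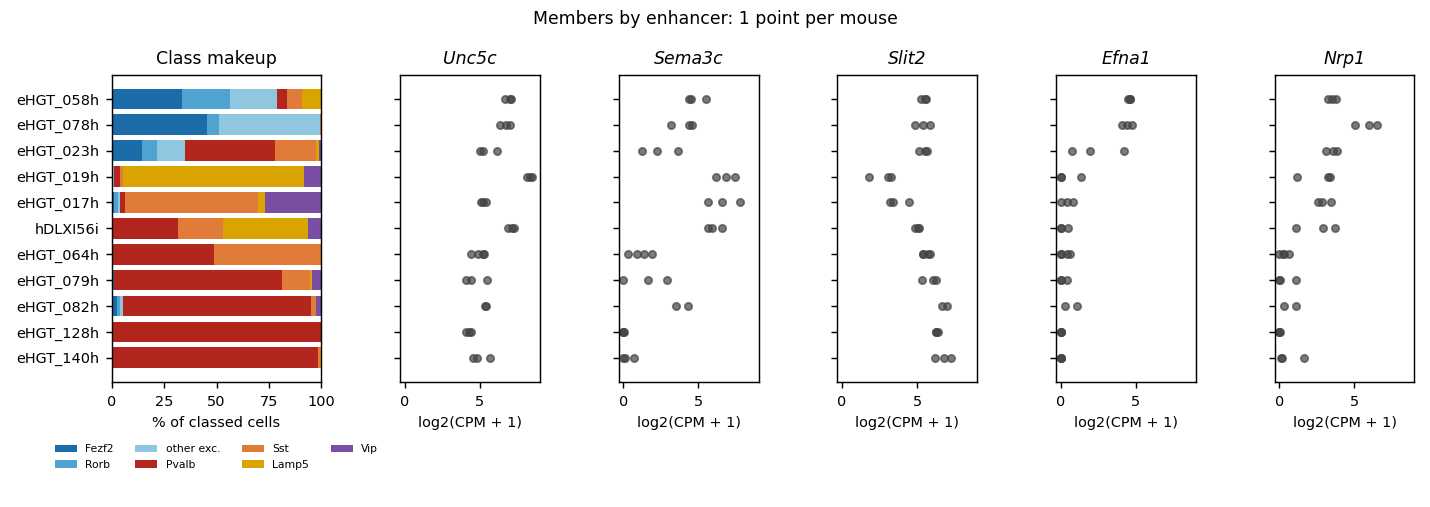
Share of classed cells in each of 7 classes (left, percent) and level of 5 members as log2(CPM + 1) with 1 point per mouse (right), for 11 enhancers down the page. Unc5c is highest with eHGT_019h, whose bar is mostly Lamp5, Slit2 is lowest there, and Efna1 is high with eHGT_058h and eHGT_078h, whose bars are mostly excitatory.

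Within 1 class few members were called across enhancers. Among Pvalb cells (20 mice, 7 enhancers) 1 of 54 members was called, against 1.28% of all genes, and 10 had an unadjusted p under 0.05. It was Epha5, a receptor of ephrin-A ligands (adjusted p = 0.0324). Its level was 169.9, 202.1 and 223.6 CPM in Pvalb cells of the hDLXI56i mice, and group means of the other 6 enhancers lay between 87.8 and 119 CPM. No Pvalb profile of another enhancer was as high as the lowest of hDLXI56i. The call did not hold in mice of letter G alone, on recovered reads with limma voom, on means of log values, or with no filter. It was lost without any 1 of 7 mice (adjusted p 0.0505 to 0.126), namely eHGT_023h mouse MouseID-497549 or MouseID-498748, eHGT_064h mouse MouseID-497550, eHGT_128h mouse MouseID-468101, MouseID-473546 or MouseID-475243, or hDLXI56i mouse MouseID-384912. An enhancer needed at least 2 mice, so leaving out either eHGT_023h mouse took that whole enhancer out of the test. Among Sst cells (11 mice, 4 enhancers) limma called 0 of 58 members, against 0.16% of all genes. Of these 16 had an unadjusted p under 0.05, the smallest for Robo2 (adjusted p = 0.1001), and limma voom on recovered reads called 0 as well. The shares of all genes given here for Pvalb and Sst cells are at adjusted p. Those at an unadjusted p under 0.05 were not computed.

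A list of 61 other genes, put together as signalling and partner genes of these pathways, was followed through the same fit, and 60 of them were tested. The place of each listed gene, such as Lypd6, in these pathways was not checked. In excitatory against inhibitory cells 14 were called higher and 9 lower, against 8.62% and 5.44% of all genes. Ngef, an exchange factor that acts behind Epha4, averaged 282.4 CPM in excitatory and 54.9 CPM in inhibitory classes (log2 difference 3.18 ± 0.24, adjusted p = 1.18e-18). Ngef was thus on the same side as Epha4. The adhesion protein Dscam, which also binds netrin, averaged 151.3 CPM in excitatory and 45.9 CPM in inhibitory classes (log2 difference 2.84 ± 0.26, adjusted p = 4.35e-15). In Pvalb cells 3 of the 60 were called higher and 12 lower (all genes 4.44% and 5.03%). Dscam (log2 difference -3.07 ± 0.27, adjusted p = 2.62e-15) and Ngef (log2 difference -3.14 ± 0.25, adjusted p = 3.59e-17) were among the lower ones. Sst cells had 4 higher and 5 lower (all genes 3.71% and 3.63%). Among them Lrrc4c, the binding partner of Ntng1, averaged 64.1 CPM in Sst and 387.7 CPM in the other interneuron classes (log2 difference -3.04 ± 0.27, adjusted p = 1.85e-14), while Lypd6 (log2 difference 4.21 ± 0.42, adjusted p = 8.75e-13) and Dscam (log2 difference 2.002 ± 0.31, adjusted p = 3.78e-07) were higher.

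Lamp5 cells had 6 higher and 8 lower (all genes 6.01% and 3.91%), with the Rac-inactivating protein Chn2 at 134.96 CPM in Lamp5 and 38.9 CPM in the other interneuron classes (log2 difference 2.82 ± 0.28, adjusted p = 6.15e-13). The contactins Cntn4 (log2 difference -3.42 ± 0.45, adjusted p = 6.87e-09) and Cntn6 (log2 difference -2.66 ± 0.43, adjusted p = 1.63e-06), surface adhesion proteins, were lower. Vip cells had 16 higher and 2 lower (all genes 5.65% and 6.29%). Their Chn2 averaged 2.71 CPM, against 82.9 CPM in the other interneuron classes (log2 difference -5.02 ± 0.34, adjusted p = 2.91e-19), and Lypd6 was lower (log2 difference -4.32 ± 0.62, adjusted p = 8.70e-08) and Dscam higher (log2 difference 3.41 ± 0.45, adjusted p = 1.15e-08). Vip and Lamp5 cells thus had the lowest and the highest Chn2 mean of the interneuron classes. Fezf2 cells had 2 higher and 1 lower, near the share over all genes (1.86% and 1.47%): Dpysl5 (log2 difference 1.12 ± 0.33, adjusted p = 0.0219) and Dpysl3 (log2 difference 1.08 ± 0.21, adjusted p = 2.09e-04), of the collapsin response mediator family downstream of Sema3a, and Chn2 (log2 difference -1.47 ± 0.29, adjusted p = 3.24e-04). With each mouse as a fixed term Dpysl5 was not called (1.17), nor with a Fezf2 and Rorb threshold of 50 CPM (0.90). It lost its call without eHGT_023h mouse MouseID-497548, eHGT_058h mouse MouseID-458159, or eHGT_078h mouse MouseID-453328 or MouseID-498749 (0.95, 1.03, 0.92 and 0.92), and Dpysl3 without eHGT_023h mouse MouseID-497548 (0.96). Rorb cells had 3 higher and 3 lower (all genes 3.47% and 3.06%), among them Mical1, an actin-oxidising plexin effector (log2 difference 2.15 ± 0.52, adjusted p = 0.00243), Cntn6 (log2 difference -1.84 ± 0.51, adjusted p = 0.00945; -1.62 and not called with each mouse as a fixed term) and Dscaml1 (log2 difference -3.87 ± 0.49, adjusted p = 3.13e-08). Other excitatory cells had 4 higher and 12 lower (all genes 3.67% and 4.77%), with Dscaml1 higher (log2 difference 2.78 ± 0.44, adjusted p = 1.62e-06) and the contactin Cntn5 (log2 difference -2.29 ± 0.36, adjusted p = 1.74e-06) and the exchange factor Vav3 (log2 difference -1.88 ± 0.46, adjusted p = 0.00161) lower. Across the 11 enhancers 51 of the 60 differed, against 53.4% of all genes.

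Of the 65 fitted members, 56 were called in at least 1 of the 8 class comparisons and 9 in none. The share of all 22011 genes called in at least 1 was not computed, and single comparisons called 3.33% to 14.1% of them. Ntn4 was called in 7 and Sema4a in 6, while Dcc, Nrp1, Sema3a, Sema6a, Sema6d and Unc5d were each called in 5. The 9 that were not called included genes at substantial levels. Epha5 had class means from 109.3 to 185.03 CPM, Plxna2, an A-type plexin, from 39.2 to 82.5 CPM, and Sema6b from 14.1 to 31.3 CPM. These genes varied little between the classes next to Sema5a (0.286 to 250.1 CPM). A missed threshold does not show that their levels were equal. The ephrin Efna3 had class means from 10.3 to 34.8 CPM. The remaining 5 (Epha1, Ephb4, Plxnb3, Sema3b and Sema4c) had class means of at most 2.71 CPM.

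The 5 members under the filter were nearly silent. Reads were seen in 2 of 1483 cells for Efna4, an ephrin-A ligand, in 11 for the receptor Epha2, in 10 for Plxna4os1, in 4 for Robo4, known as the Robo of blood vessels, and in 4 for Sema3g. Cells at this depth can miss low transcripts, so these counts bound detection and not expression.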

How the data were processed

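Transcriptomes of 1483 sorted single cells from 33 mice were used as deposited. The values are CPM, reads of a gene per 1000000 reads, computed per cell by the authors, so that each cell sums to 1000000. STAR and mm10 are listed in the submitters' processing notes, with neither version nor role. The sources do not name the counting program, the annotation or any filter on cells. All values were whole multiples of 1 read within 0.01 read (1 read was worth a median of 1.71 CPM), so reads were recovered from them. Totals per mouse ran from 17123364 to 35856031 reads in 32 to 53 cells.

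Mean CPM per mouse and class were taken as log2(CPM + 1) and fitted with limma 3.58.1 (R 4.3.3, trend and robust options, statmod 1.5.0). Genes needed 1 CPM in at least 2 profiles, which left 22011 genes in the class fit. Profiles of 1 mouse come from the same animal, so the mouse was a random block (correlation 0.0689), with a fixed mouse term as an alternative. P-values were adjusted over all genes by the Benjamini-Hochberg method. The fits were tested on simulated data. No doublet caller was run, and cells with several interneuron markers or with markers of both transmitters joined no class. Exon lengths came from GENCODE vM21, which may not be the annotation the authors counted with.

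The members and gene lists were chosen with earlier results of these data known. Genes named per class comparison were the called members with at least 10 CPM on the higher side, at most 6 of the largest rises and 4 of the largest falls (12 and 12 for excitatory against inhibitory cells). The test over enhancers named at most 8 members of smallest adjusted p, and the pathway list the 3 largest differences. One gene that this rule picks from the pathway list is not reported here. Other genes were singled out after their values were seen. Alternatives varied the pseudocount, filter, averaging, class thresholds, minimum cells, mouse, enhancer and library letter, and left out each mouse in turn.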

Additional observations from a re-analysis of the deposited data

Results flagged for a closer look

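Within a group of mice, the highest and the lowest value were each set against the nearest neighbour by Dixon's ratio in 71 groups of 4 to 10 mice. Such a test singles out about 1 in 20 groups by chance if the values follow a normal distribution and the groups are independent. Mean CPM cannot be negative, and groups of the same class came from the same mice, so the chance rate here is not known. Of the 71 groups, 11 were singled out, each for a high value, which cannot be read as an excess over chance. No cause was tested for any of them. In 3 of the 11, 1 cell held 99.2% or more of the summed level of its profile: Sema3e in Rorb cells (1 of 5 cells), and Slit2 (1 of 8) and Sema3a (1 of 6) in Vip cells. For Slit2 in Lamp5 cells 1 of 39 cells held 94.4%, and for Unc5d in Vip cells 1 of 8 held 88.6%.

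Over all excitatory cells of a mouse, Sema4a stood at 69.8 CPM in eHGT_023h mouse MouseID-497549, against 44.3 CPM in the next of 9 mice. Ntn4 in the same cells was 10.4 CPM in eHGT_023h mouse MouseID-497548, against 3.31 CPM in the next of 9 mice. In Lamp5 cells, Slit2 was 2.67 CPM in eHGT_019h mouse MouseID-392043, against 1.15 CPM in the next of 7 mice, and Ntng1 was 0.844 CPM in hDLXI56i mouse MouseID-384912, against 0.324 CPM in the next of 7 mice, both low levels in absolute terms.

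Vip cells, with 4 mice, gave 4 of the 11. Sema3c was 353.9 CPM in eHGT_017h mouse MouseID-410195, against 70.7 CPM in the next of 4 mice. Unc5d was 19.8 CPM in eHGT_017h mouse MouseID-406074, against 0.703 CPM in the next of 4 mice, and Slit2 was 13.8 CPM in eHGT_017h mouse MouseID-406074, against 0.943 CPM in the next of 4 mice, so the same mouse was apart for both. Sema3a was 0.288 CPM in hDLXI56i mouse MouseID-400157, against 0 CPM in the next of 4 mice.

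In Fezf2 cells, Sema6a was 85.2 CPM in eHGT_058h mouse MouseID-463481, against 42.4 CPM in the next of 8 mice. In Rorb cells, Sema3e was 40.2 CPM in eHGT_078h mouse MouseID-498749, against 0.302 CPM in the next of 5 mice. In other excitatory cells, Epha3 was 59.98 CPM in eHGT_078h mouse MouseID-454782, against 32.8 CPM in the next of 7 mice.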

How the results depend on the processing

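Counts of called members moved by over 1.5 times under these settings. The counts over all genes under the same settings are not given beside them, so a move may not be particular to the members. A pseudocount of 10 CPM gave 15 in excitatory against inhibitory cells, 12 in Pvalb, 6 in Sst, 9 in Lamp5, 13 in Vip, 2 in Fezf2, 6 in Rorb and 11 in other excitatory cells, since it shrinks low genes by construction. The fixed mouse block gave 14 in Pvalb and 8 in Rorb cells. Mice of letter G alone gave 4 in Fezf2, 8 in Rorb and 11 in other excitatory cells. Profiles of at least 10 cells gave 4 in Rorb and 14 in Vip cells, each from 1 remaining profile that is assumed to vary like those of the other classes. Among Pvalb cells across enhancers, 2 members were called with at least 10 cells, and 0 on recovered reads with limma voom, in letter G alone and without the filter. Among Sst cells across enhancers, an interneuron threshold of 300 CPM and a pseudocount of 10 CPM each gave 1. Apart from the construction and the lone profiles named, the cause was not tested.

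Leaving out each mouse in turn gave 33 to 40 called members in excitatory against inhibitory cells, 24 to 26 in Pvalb, 14 to 17 in Sst, 19 to 23 in Lamp5, 18 to 23 in Vip, 6 to 10 in Fezf2, 11 to 17 in Rorb and 15 to 20 in other excitatory cells. It gave 51 to 56 across enhancers, 0 to 4 for Pvalb cells across enhancers (4 without hDLXI56i mouse MouseID-382159, 2 without eHGT_079h mouse MouseID-475241 or hDLXI56i mouse MouseID-400157) and 0 to 1 for Sst cells across enhancers (1 without hDLXI56i mouse MouseID-384912 or MouseID-400157). In Sst cells, leaving out either of those hDLXI56i mice took that whole enhancer out of the test.

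Of the named results, 71 kept their call under every alternative run, 44 lost it under at least 1, and 0 reversed. The fixed mouse block ended 20 calls, given beside each result, and changed no other. The calls ended were 31 with a pseudocount of 10 CPM, 13 with at least 10 cells, 13 in letter G alone, 11 on recovered reads, 9 with the enhancer as a term, 9 on means of log values, 7 with a Fezf2 and Rorb threshold of 50 CPM, 7 with a pseudocount of 0.1 CPM, 3 without the filter, 2 with an interneuron threshold of 30 CPM, 1 in cells of at least 100000 reads, 1 without a mouse block, and 0 with the letter as a term, an interneuron threshold of 300 CPM or the oligodendrocyte-marked cells left out. Those ended by the enhancer term or the threshold of 50 CPM are given beside their results. In letter G alone, the log2 differences of the calls that ended were Robo1 (0.99) and Slit1 (-0.75) in Fezf2 cells, Epha5 (0.81, the range of group means, also below) across enhancers in Pvalb cells, Dcc (1.80), Nrp1 (-1.69), Ntn4 (0.77), Robo1 (-1.37), Sema6a (1.27), Sema6d (2.16) and Unc5d (1.89) in Rorb cells and Epha3 (0.78), Sema4a (1.59) and Vav3 (-1.28) in other excitatory cells. On recovered reads they were Dpysl5 (1.79) and Robo1 (1.29) in Fezf2 cells, Epha5 (1.19) across enhancers in Pvalb cells, Cntn6 (-2.04), Nrp1 (-1.75), Robo1 (-1.24) and Sema6d (1.61) in Rorb cells, Nrp1 (3.39) and Unc5d (-6.01) in Vip cells and Plxna1 (0.94) and Vav3 (-2.25) in other excitatory cells. On means of log values they were Ntng1 (-0.99993) in Lamp5 cells, Epha5 (1.03) across enhancers in Pvalb cells, Ntn4 (0.79), Sema6a (0.72) and Sema6d (1.04) in Rorb cells, Ntn4 (0.54) in Sst cells, Nrp1 (0.98) and Sema4a (0.64) in Vip cells and Efnb3 (-0.81) in excitatory against inhibitory cells. The planned count-model fits on recovered reads were not run. Vip and Rorb profiles are few (4 and 5), which limits both. The alternative without cells carrying oligodendrocyte markers was added after seeing the data.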
